A study of Drosophila melanogaster with 8 samples.

Results

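The genes described here are 10 components of epidermal growth factor receptor (EGFR) signalling in the developing fly eye. They include the receptor gene Egfr, the ligand gene spi, the ligand export gene S (Star) and the ligand protease genes rho and ru. The others, aos, kek1, sty, Mkp3 and edl, are grouped here as inhibitors. All 10 genes were chosen by name, not by their values, and were found by symbol among the 15127 genes of the deposited table. RNA came from retinas of female Drosophila melanogaster pupae at 40 h after puparium formation. The control group was the w[1118] stock (4 libraries, named W1, W2, W5, W6 here), and the other group carried sev[14], an allele of the receptor tyrosine kinase gene sevenless, with an unspecified w allele written w[*] (4 libraries, S1, S2, S4, S5). Both groups were thus w stocks of the same age, sex and tissue. Per the labels, retinas were pooled, with 10 to 20 prepared for each genotype. The labels do not say whether libraries of 1 genotype were made from different animals, so p-values measure only the spread among these libraries, some of which may be technical. With a single stock per genotype, effects of sev and of any other stock difference cannot be told apart.

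Spitz, the product of spi, is made as a membrane-anchored precursor that cannot signal. Star carries the precursor out of the endoplasmic reticulum, and the rhomboid proteases Rhomboid and Roughoid, encoded by rho and ru, cut it to release the soluble ligand that activates the receptor and, through it, the Ras and MAP kinase cascade. The pathway induces several of its own inhibitors: Argos (aos) is secreted and sequesters Spitz, Kekkon (kek1) binds the receptor at the membrane, Sprouty (sty) acts inside the cell, and the phosphatase Mkp3 dephosphorylates the MAP kinase Rolled. The small protein of edl binds the ETS-domain factors Pointed and Yan (aop) through its SAM domain. In the eye, EGFR signalling recruits photoreceptors, cone cells and pigment cells in turn and keeps interommatidial cells alive, while the R7 precursor needs the Sevenless receptor as well.

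The recovered depth was 13755813 to 19317307 reads per library, and each of the 10 genes had between 303 and 5329 reads in every library, so all passed the filter of a mean of 5. Values are normalized counts as deposited. The sev transcript itself stood at 298 ± 58.3 in control and 274 ± 137 in sev14 libraries (SD, n = 4 each, exact permutation p = 0.629, 2-sided), so this level does not check the labels. The white gene, in which the stocks also differ, stood at 10.4 ± 3.88 and 6124 ± 1179. Markers of retinal cells were present in every list: all 8 photoreceptor genes (elav and gl among them) and all 8 cone and pigment cell genes (ct, pros and rst among them) passed the filter. Limma called 1 of these 16 genes, wrapper of the cone and pigment cell list, which stood at 1205 ± 143 in control and 714 ± 101 in sev14 (adjusted p = 0.0146). Of the 6 glial markers limma called Mdr65 alone, as lower (log2 difference of -0.69, adjusted p = 0.0425). The differences of repo (-0.62, limma adjusted p = 0.0940) and nrv2 (0.53, limma adjusted p = 0.0686) were not called. Those of moody, loco and Eaat1 were -0.11, -0.01 and -0.22 (limma adjusted p = 0.795, 0.993 and 0.797). Which cells the wrapper difference came from was not tested. Markers of other tissues were present too, and their levels differed between libraries, as described below. In such bulk RNA, fewer cells of a type and less RNA per cell cannot be told apart.

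No gene of the 10 passed the limma test between genotypes (0 higher and 0 lower at an adjusted p under 0.05), where 4.21% of the 10192 tested genes did, 2.38% higher and 1.82% lower. At an unadjusted p under 0.05 there were 3 of the 10 (rho, Egfr and aos), against 16.7% of all tested genes. The count test edgeR called 0 of the 10 (3.77% of all genes, 2.24% higher and 1.53% lower), and DESeq2 called 1, rho, which it gave as lower (8.35% of all genes, 4.96% higher and 3.39% lower). The authors' deposited table also has 1 of the 10, rho, under an adjusted p of 0.05 (6.78% of its genes, 2.75% lower). In none of the 10 were the libraries of one genotype all above those of the other, which was so for 11.1% of all tested genes, 5.92% higher and 5.18% lower. The median size of the change, regardless of sign, was 0.23 on the log2 scale over the 10 genes and 0.23 over all tested genes.

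**Figure D1:**
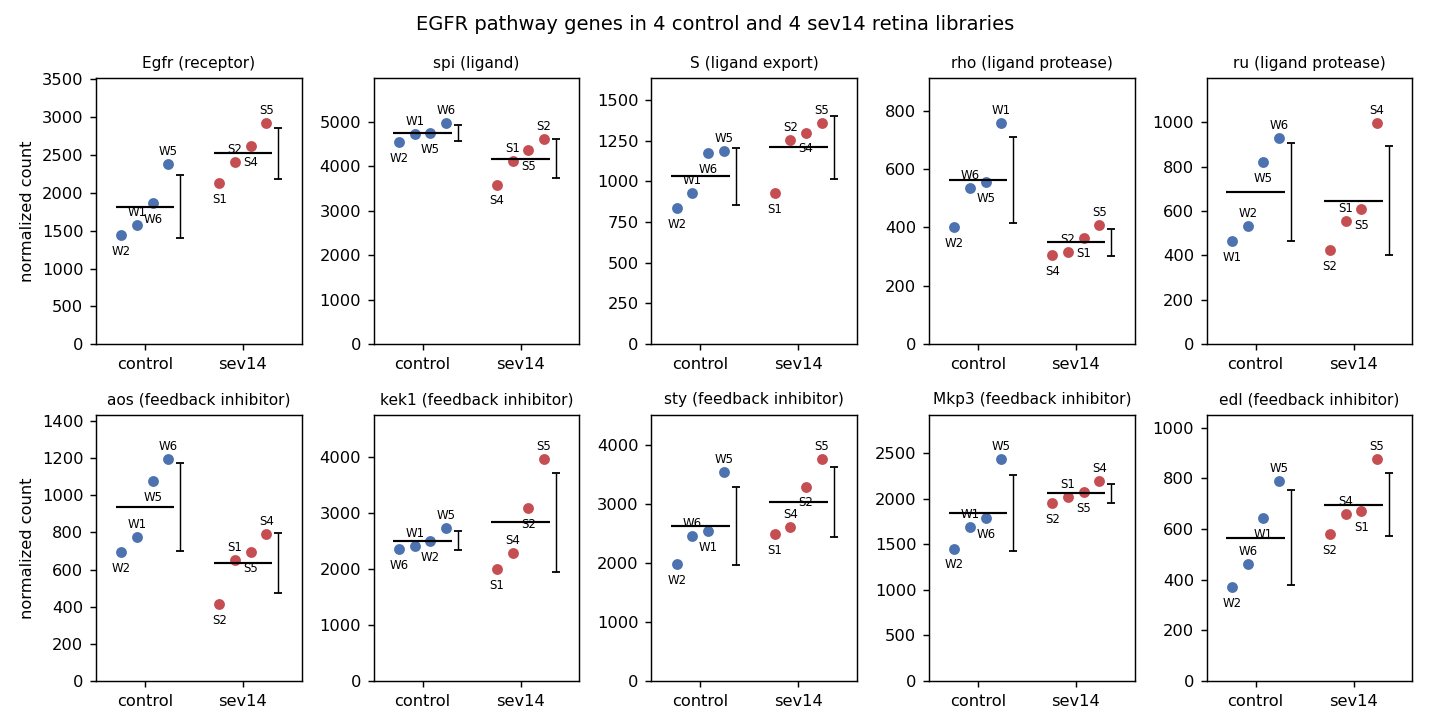
Normalized count (vertical axis, from 0) of each gene in each library. Points are libraries, horizontal lines are means and bars at the side are SD over 4 libraries; the sev14 libraries overlap the control libraries in every panel, with 3 of 4 sev14 libraries above all control libraries for Egfr and S, and 3 of 4 below all of them for spi, rho and aos.

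The receptor gene Egfr (FBgn0003731, 2R 21522420 to 21559977, plus strand) had normalized counts of 1579.5, 1441, 2385 and 1869 in W1, W2, W5 and W6. In the sev14 libraries it had 2131, 2413, 2620.1 and 2926 in S1, S2, S4 and S5. The groups overlapped only through W5, which lay above S1, and in 15 of the 16 comparisons of a sev14 with a control library the sev14 library was higher. The means were 1819 ± 418 in control and 2523 ± 336 in sev14, a ratio of 1.39. The log2 difference, sev14 minus control, was 0.49 with a 95% confidence interval of 0.11 to 0.87 (limma unadjusted p = 0.0169, adjusted p = 0.166). An exact permutation test of this gene alone gave p = 0.0571, 2-sided, where the smallest p that 4 against 4 libraries allow is 0.0286. The confidence intervals here and below are for 1 gene at a time and are not adjusted for the number of genes.

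The ligand gene spi (FBgn0005672, 2L 19567900 to 19577315, minus strand) was the most abundant of the 10 and varied least. Its normalized counts were 4718, 4549, 4740.4 and 4978 in W1, W2, W5 and W6, and 4128, 4605, 3589 and 4365 in S1, S2, S4 and S5. Only S2 reached into the control range. The control mean was 4747 ± 176 and the sev14 mean 4172 ± 435. The log2 difference was -0.19, with an interval of -0.45 to 0.07 (limma adjusted p = 0.470, exact permutation p = 0.0571). The interval leaves room for a fold between 0.733 and 1.05. Its spread within genotypes, as a root mean square deviation of log2 values, was 0.10, and 4.48% of the 9075 genes with a mean of at least 20 varied less.

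Star (S, FBgn0003310, 2L 1049674 to 1077815, minus strand), which moves Spitz towards the compartment where it is cut, had 927, 836, 1188 and 1173 in W1, W2, W5 and W6, and 927, 1252, 1299 and 1359.7 in S1, S2, S4 and S5. S1 lay among the low control libraries and the other 3 sev14 libraries lay above every control library. The means were 1031 ± 177 and 1209.5 ± 193, with a log2 difference of 0.23 and an interval of -0.14 to 0.60 (limma adjusted p = 0.568, exact permutation p = 0.171).

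The 2 protease genes, which lie on the same strand of 3L with 76373 bp and 6 genes of the table between them, had different profiles. For rho (FBgn0004635, 3L 1463811 to 1468944) the control libraries had 759, 399.9, 555 and 534 in W1, W2, W5 and W6. The sev14 libraries had 365, 317, 306 and 408 in S1, S2, S4 and S5. All sev14 libraries but S5 lay below the whole control range, and S5 lay above W2 alone. The means were 562 ± 148 and 349 ± 47.2, a ratio of 0.622, with a log2 difference of -0.66 and an interval of -1.10 to -0.21. The limma unadjusted p was 0.00833 and the adjusted p 0.112, which ranked rho at 759 of the 10192 genes, and the exact permutation p was 0.0571. By DESeq2 the difference was -0.69 (adjusted p = 0.0386), and the authors' deposited table gives -0.69 with an adjusted p of 0.0118. When 1 library was left out, the limma adjusted p ran from 0.0579 without W2, where the difference was -0.81, to 0.238 without W1, the library with the highest rho level, where it was -0.50.

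For ru (FBgn0003295, 3L 1370628 to 1387437) the values were 467, 531, 820.1 and 928 in W1, W2, W5 and W6, and 557, 425, 998 and 611 in S1, S2, S4 and S5. The genotypes were interleaved, and S4 held the highest and S2 the lowest of all 8 values. Means were 686 ± 222 and 648 ± 246, with a log2 difference of -0.10 and an interval of -0.75 to 0.55 (limma adjusted p = 0.927, exact permutation p = 0.83). This interval leaves room for a fold between 0.597 and 1.47, and the sign of the difference turned when W5, W6 or S2 was left out. Both protease genes lie within the span of Ptp61F on the opposite strand, a phosphatase gene with 1322 to 2157 normalized counts, but share 0 bp of exon with it. None of the 10 genes shared exon sequence with another annotated gene.

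Among the genes grouped as inhibitors, aos (FBgn0004569, 3L 16470386 to 16483650, minus strand) had a negative log2 difference, while those of the other 4 were positive. The exceptions were kek1 with total-read scaling (-0.01), without S5 (-0.05) or without S2 and S5 (-0.22), and sty without S2 and S5 (-0.01). The normalized counts of aos were 776, 696, 1077 and 1193 in W1, W2, W5 and W6, and 649, 412, 789 and 692 in S1, S2, S4 and S5. S4 was the only sev14 library inside the control range, above W1 and W2. The means were 935 ± 237 and 636 ± 159.8, a ratio of 0.679, with a log2 difference of -0.56 and an interval of -1.09 to -0.04. This was past an unadjusted p of 0.05 (limma p = 0.0385) but not past the adjusted one (0.255), and the exact permutation p was 0.114. Leaving out S2, the library with the lowest aos level, moved the difference to -0.37 (limma adjusted p = 0.397).

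The membrane inhibitor gene kek1 (FBgn0015399, 2L 12817000 to 12822787, minus strand) had 2416, 2495, 2741 and 2353 in W1, W2, W5 and W6, and 1999.9, 3097, 2284 and 3959 in S1, S2, S4 and S5. The control libraries lay close together, with 2 sev14 libraries below them and 2 above. The control SD was 6.79% of the mean and the sev14 SD 31.1%. The log2 difference was 0.13 (interval -0.31 to 0.57, limma adjusted p = 0.820).

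Sprouty (sty, FBgn0014388, 3L 3401153 to 3424935, minus strand) had 2544, 1980.3, 3549 and 2452 in W1, W2, W5 and W6, and 2492, 3296, 2609 and 3757 in S1, S2, S4 and S5. The ranges overlapped over most of their length, with a log2 difference of 0.22 (interval -0.22 to 0.66, limma adjusted p = 0.662). The MAP kinase phosphatase gene Mkp3 (FBgn0036844, 3L 19066155 to 19086426, minus strand) had 1688, 1454, 2434 and 1793 in W1, W2, W5 and W6, and 2017, 1952, 2195 and 2075 in S1, S2, S4 and S5. The 4 sev14 values fell inside the control range, at 2059.9 ± 103 against 1842 ± 419, and the log2 difference was 0.19 (interval -0.16 to 0.53, limma adjusted p = 0.630). For edl (FBgn0023214, 2R 18667527 to 18673536, minus strand) the values were 644, 372, 788 and 459 in W1, W2, W5 and W6, and 669.5, 580.0, 659.7 and 874 in S1, S2, S4 and S5. W2 and W6 were low and the rest overlapped, with means of 566 ± 186 and 696 ± 125 and a log2 difference of 0.34 (interval -0.18 to 0.87, limma adjusted p = 0.546).

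**Figure D2:**
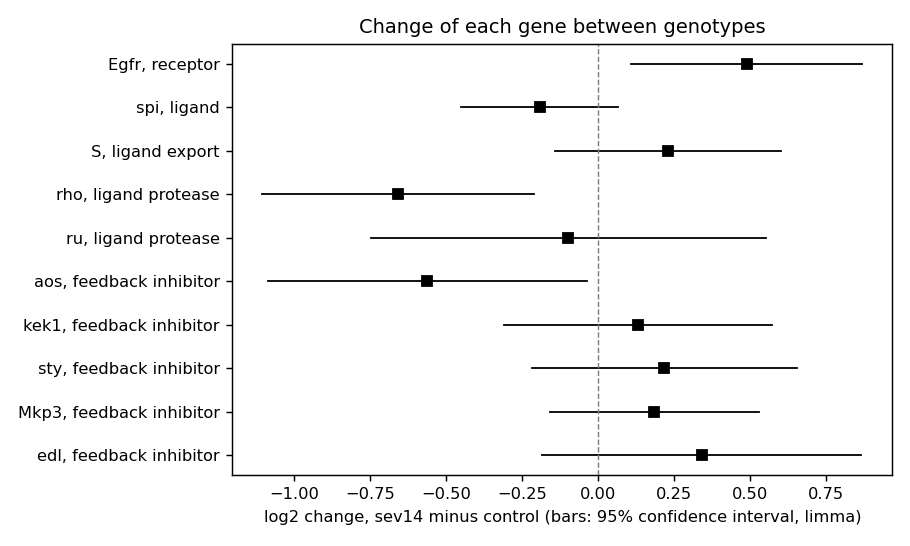
Log2 change of each gene, sev14 minus control (horizontal axis), with limma's 95% confidence interval for that gene alone. The interval lies above 0 for Egfr (0.11 to 0.87), below 0 for rho (-1.10 to -0.21) and aos (-1.09 to -0.04), and spans 0 for the other genes; with adjustment over all tested genes none was called.

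Levels between genes were compared as normalized counts per kb of merged exon. In control retinas spi stood at 2612 ± 97.1 per kb, and the other 9 genes lay between 187 and 484 per kb. The order of the control means was spi, sty (484 ± 121), kek1 (432 ± 29.4), edl (389 ± 128), Mkp3 (389 ± 88.5), ru (382 ± 124), aos (331 ± 84.1), Egfr (262 ± 60.1), S (198 ± 33.9) and rho (187 ± 49.4). Only spi was separated from its neighbour by more than the range of the 4 libraries, and with the length of the longest transcript in place of merged exon Egfr was also separated from S. In sev14 retinas spi again came first (2296 ± 239) and rho last (116 ± 15.7), and both were separated from their neighbours. Egfr stood 8th in control and 6th in sev14 retinas, at 363 ± 48.3, and aos 7th and 9th, at 225 ± 56.6 in sev14. The libraries of Egfr and aos overlapped in control (207 to 343 and 247 to 423 per kb) and not in sev14 (307 to 421 and 146 to 279.6 per kb).

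**Figure D3:**
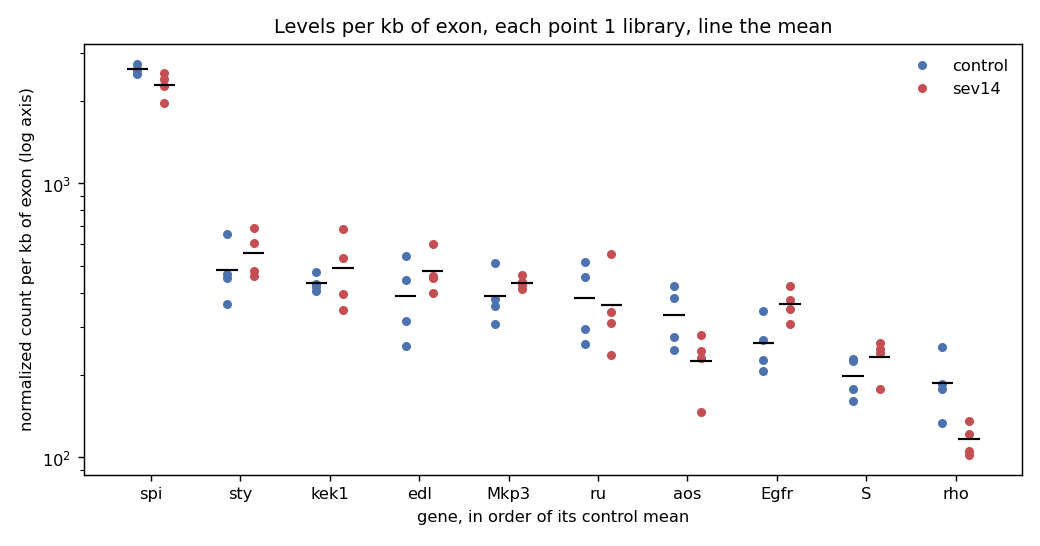
Normalized count per kb of exon (vertical log axis) for each gene in order of its control mean; each point is 1 library and lines are means. The ligand gene spi lies above 1975 per kb in every library, and every other gene lies below 691 per kb.

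Levels of 2 genes can also be set against each other within a library, where the library's scaling factor cancels apart from the pseudocount of 1. All 45 pairs of the 10 genes were examined in this way, after the values had been seen, and no test was made. In 13 pairs, or 28.9%, the 4 sev14 differences lay wholly outside the 4 control differences, against 13.4% of all pairs among the 9075 genes with a mean of at least 20. Of these 13 pairs, 11 held rho or aos, so they rest largely on the same few genes and are not separate results. The log2 level of Egfr exceeded that of rho by 1.06, 1.85, 2.10 and 1.81 in W1, W2, W5 and W6, and by 2.54, 2.92, 3.10 and 2.84 in S1, S2, S4 and S5. This gap was the one that differed most, by 1.15. Egfr exceeded aos by 1.03, 1.05, 1.15 and 0.65 in W1, W2, W5 and W6, and by 1.71, 2.55, 1.73 and 2.08 in S1, S2, S4 and S5. The receptor transcript thus stood farther above that of the secreted inhibitor in every sev14 library than in any control library. The excess of spi over Egfr was 1.41 ± 0.30 in control and 0.73 ± 0.25 in sev14 libraries (SD, n = 4), with W5 (0.99) and S1 (0.95) nearest each other. Between aos and ru, 2 genes with alike profiles across libraries, the gap was 0.47 ± 0.18 in control and 0.005 ± 0.26 in sev14 libraries.

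**Figure D4:**
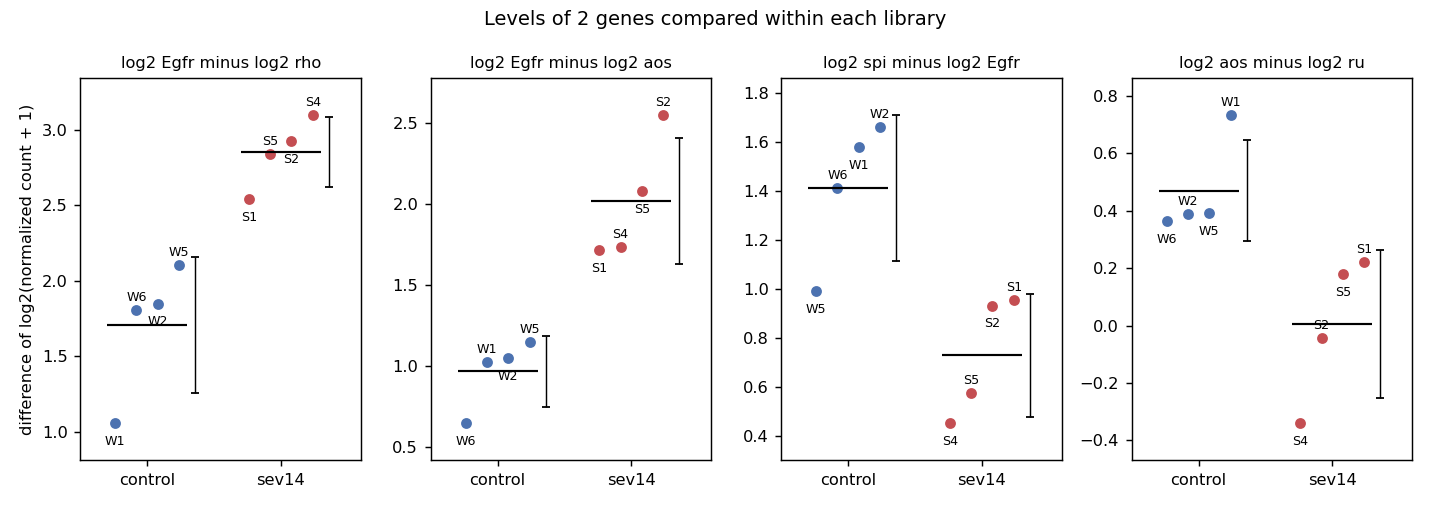
Difference of log2(normalized count + 1) between 2 genes in the same library (vertical axis) for 4 of the 13 pairs that did not overlap; points are libraries, lines means and bars SD over 4 libraries. The excess of Egfr over rho ran from 1.06 to 2.10 in control and from 2.54 to 3.10 in sev14 libraries, and the excess of Egfr over aos from 0.65 to 1.15 and from 1.71 to 2.55.

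Several of the 10 genes followed the same libraries. Of the control libraries, W5 held the highest level of 6 of the 10 genes (Egfr, S, kek1, sty, Mkp3 and edl) and W2 the lowest of 8. Of the sev14 libraries, S5 held the highest level of 6 (Egfr, S, rho, kek1, sty and edl). With each value centred on its genotype mean, the profiles of Egfr and S over the 8 libraries differed by a root mean square of 0.11 on the log2 scale, and those of Egfr and Mkp3 by 0.11. Both pairs lay on the same side of the genotype mean in 7 of 8 libraries. The profiles of kek1 and sty lay on the same side in 8 of 8 libraries (0.20), and those of aos and ru in 6 of 8 (0.19). The least alike pair was ru and kek1, at 0.56, followed by the neighbouring proteases rho and ru, at 0.54.

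Among the other 9074 genes with a mean of at least 20, the ones nearest to each profile are named only as a description over 8 libraries. They were CG4297 and CG13097 for Egfr (0.06 and 0.08), CG2202 and CG33096 for spi (0.04 each), Upf2 and CG5205 for S (0.06 each), and Dok and CG15365 for rho (0.07 and 0.10). For ru they were Cpr97Eb and stl (0.10 and 0.11), for aos spict and CG7966 (0.06 and 0.07), for kek1 CG43867 and CG10011 (0.08 and 0.09), and for sty Exn and CG3921 (0.06 each). Strn-Mlck and CG13097 were nearest to Mkp3 (0.05 and 0.06), and Unc-13-4B and CR44383 to edl (0.13 and 0.14).

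Markers of other tissues moved with some of these profiles. The mean log2 deviation of the 10 optic lobe neuron markers from the genotype mean was 0.40, 0.66, -0.28 and -0.79 in W1, W2, W5 and W6, and 0.04, 1.23, -1.06 and -0.21 in S1, S2, S4 and S5. The deviations of aos were -0.23, -0.39, 0.24 and 0.39 in the control libraries and 0.07, -0.58, 0.35 and 0.16 in the sev14 libraries, in the same order. Within each genotype the library order of aos was thus the reverse of that of the optic lobe markers, and ru had the same order as aos among the sev14 libraries. The photoreceptor marker gl also had the order of aos within both genotypes. Its counts were 2619, 2181, 3107 and 3839 in W1, W2, W5 and W6, and 2332, 1988, 4457 and 3082 in S1, S2, S4 and S5. The photoreceptor list as a whole did not have this order. How many of all genes have it was not counted, so it is not shown to be particular to aos. Parts of the optic lobe order were seen in other lists. The fat body markers had the optic lobe order among control libraries (0.27, 0.66, -0.36 and -0.58) but not among sev14 libraries. The cone and pigment cell markers were also lowest in W6 (-0.27) and S4 (-0.36), but were highest in W5 and S5. The summed level of the 10 optic lobe markers ran from 3696 to 9086 in control and from 2494 to 9669 in sev14 libraries. Limma, edgeR and DESeq2 called 0, 0 and 0 of the 10, with 0 below an unadjusted limma p of 0.05. Without W6 and S4, which had the lowest optic lobe marker levels, the aos difference was -0.55. Without S2 and S5 it was -0.35, and without S2 alone -0.37. That setting leaves out sev14 libraries only, and S5 (-0.21) was not high in optic lobe markers, so it is no counterpart to the first. The part of optic lobe cells in the aos level was not tested.

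**Figure D5:**
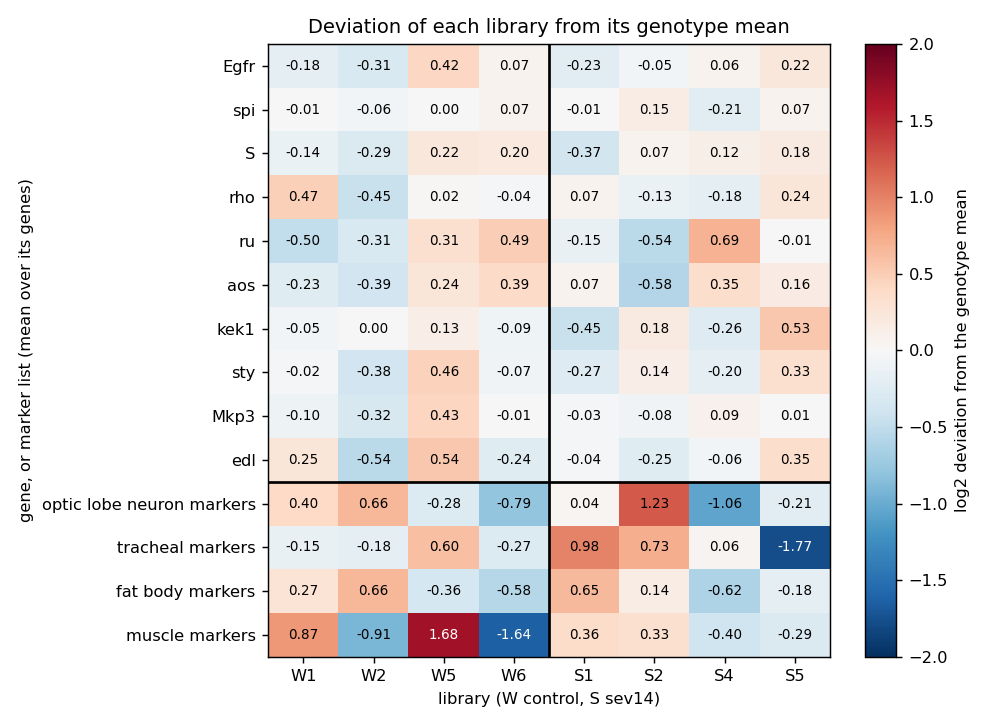
Log2 deviation of each library (columns) from its genotype mean for the 10 genes and for the mean of 4 marker lists (rows). The aos row runs opposite to the row of optic lobe neuron markers, with -0.58 against 1.23 in S2 and 0.39 against -0.79 in W6, and W5 is high in the Egfr, sty, Mkp3 and edl rows.

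The 5 tracheal markers, of which btl and trh define the tissue, summed to 1152 to 2814 in control and 2604 to 10198 in sev14 libraries. Most of this sum was verm (means of 1344 in control and 4336 in sev14) and serp (628 and 2046), so it is no measure of the amount of trachea. The means of btl were 22.0 and 97.0 and those of trh 50.3 and 139. For each of the 5 markers the libraries of the genotypes overlapped. Limma called 0 of the 5, edgeR 2 and DESeq2 3, and 4 had an unadjusted limma p below 0.05. The shares over all tested genes, for this list and those below, were 4.21% by limma, 3.77% by edgeR and 8.35% by DESeq2. For an unadjusted limma p below 0.05 the share was 16.7%. EGFR signalling, rho included, also acts in tracheal cells. S5 had the lowest tracheal deviation of the sev14 libraries, -1.77, and the highest level of Egfr and of rho among them, whereas W5 had the highest tracheal deviation of the control libraries, 0.60, and the highest Egfr level. The 5 fat body markers summed to 14834 to 36448 and 21912 to 60917. Limma called 1 of them, as higher, edgeR 1 and DESeq2 3, with 4 at an unadjusted limma p below 0.05. The 6 glial markers summed to 18482 to 24469 and 18445 to 19440.2. Limma called 1 of them, as lower, edgeR 1 and DESeq2 3, with 3 at an unadjusted limma p below 0.05. In this sum the lower repo and Mdr65 are joined with the higher nrv2. The 5 haemocyte markers summed to 325 to 571 and 501 to 741 (He, 1 of them, was at 0 in every control library), and the 5 muscle markers to 3766 to 34464 and 5969 to 14422. Of the haemocyte and muscle markers limma called 0 and 0, and DESeq2 0 and 1. W5 had the highest muscle marker deviation of the control libraries, 1.68, and the highest level of 6 of the 10 genes, whereas in sev14 S1 had the highest, 0.36, and the highest level of 0 of the 10 genes. The part of these tissues in the levels was not tested.

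Other genes of the pathway were read from the same fit. Of the 46 genes in 4 lists, limma called 1 lower and 0 higher, and 4 had an unadjusted p under 0.05. Of all tested genes, 1.82% were called lower and 2.38% higher, and 16.7% had an unadjusted p under 0.05. The called gene was csw, the phosphatase gene of the 13 genes of the Ras and MAP kinase core, which stood at 4877 ± 191 in control and 3006 ± 705 in sev14 libraries, with a log2 difference of -0.73 (limma adjusted p = 0.0339, 0.0418 by edgeR and 0.00264 by DESeq2). Every sev14 library had less csw than every control library, a separation found downwards in 5.18% of all tested genes. The gene csw was not called when any library but S2 was left out (limma adjusted p 0.0529 to 0.0973). The median change of this core was -0.01, against 0.00 over all tested genes. The MAP kinase gene rl stood at 2761 ± 479 and 2386 ± 252, and Ras85D at 1814 ± 210.5 and 1818 ± 145.

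Of the 7 other ligand and rhomboid genes limma called 0, edgeR 0 and DESeq2 1, and 1 had an unadjusted limma p below 0.05. That gene was rho-6 (FBgn0032415, 2L 12130516 to 12133411), of the rhomboid family. It had 365, 476, 304 and 431 in W1, W2, W5 and W6, and 30.1, 3.14, 111 and 84.0 in S1, S2, S4 and S5. The groups were far apart, with every sev14 library under every control library, which was so for 5.18% of all tested genes. The log2 difference was -3.55 ± 0.86 (SE, limma adjusted p = 0.0501), so it stood at the threshold. Its adjusted p was 0.0272 with a pseudocount of 5, 0.0490 with TMM scaling, 0.0358 with total-read scaling, 0.00064 by DESeq2, 0.0529 by edgeR and 0.0320 in the authors' deposited table, and 0.00841 to 0.131 when 1 library was left out. Without S2, which had the lowest rho-6 level, the difference was -2.55. The gene stet, a germline rhomboid that lies just beyond rho on 3L (1475438 to 1489547), stood at 234 ± 44.1 and 180 ± 32.0 (limma adjusted p = 0.425). Of the ligand genes, Krn stood at 593 ± 130 and 673 ± 128, vn at 235 ± 63.6 and 178 ± 30.0, and grk at 71.2 ± 29.4 and 87.6 ± 39.9. The list's median change was -0.15.

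Of 16 other negative regulators of EGFR and Ras signalling, limma called 0, edgeR 0 and DESeq2 0, and 1 had an unadjusted limma p below 0.05. Their median change was -0.08. The smallest p values were those of Ptp10D, a receptor tyrosine phosphatase gene, at 3941 ± 364 and 5083 ± 662 (limma adjusted p = 0.185), and Spred, a Sprouty-related gene, at 2495 ± 259 and 2952 ± 323 (limma adjusted p = 0.384). For Ptp10D too, every sev14 library lay above every control library. The ubiquitin ligase gene Cbl stood at 1971 ± 224 and 1718 ± 216. Of 10 nuclear effectors limma called 0, edgeR 0 and DESeq2 1, and 1 had an unadjusted limma p below 0.05, with a median change of 0.05. That gene was sina, whose ubiquitin ligase degrades the repressor Tramtrack in R7, with 971, 742, 858 and 882 in W1, W2, W5 and W6, and 1105, 1277, 1118 and 1240.4 in S1, S2, S4 and S5. Every sev14 library lay above every control library, which was so for 5.92% of all tested genes. The log2 difference was 0.46 (limma adjusted p = 0.0660, 0.0160 by DESeq2, 0.00896 in the authors' deposited table, and 0.196 with total-read scaling). The next was kay, the Fos gene, at 614 ± 115 and 773 ± 112 (limma adjusted p = 0.370). The ETS genes pnt, at 542 ± 227 and 663 ± 145, and aop, at 2513 ± 472 and 2577 ± 524, had limma adjusted p values of 0.606 and 0.961.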

How the data were processed

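The deposited table holds normalized counts, a signal per gene and library that the authors made by dividing gene counts by 1 factor per library, with the authors' log2 fold change, test score and p-value. Per the submitters' processing notes, the tools were HISAT2 2.0.3, DESeq2 1.32.0, RSEM 1.2.31, FastQC 0.11.4 and cutadapt 1.9.1 (no order of use is given), and the builds dm6 and BDGP6. Whether counting used strand was not given in the sources used here. Dividing by what 1 read is worth in each library turned 99.98% to 100% of the values into whole reads (tolerance 0.05 reads), which were used as recovered counts. Letters in the names of the 8 columns gave the genotype, and the numbers there are not the replicate numbers of the labels. Libraries of 1 genotype differed by more than sampling (chi-square over its degrees of freedom, 46.0 to 415.5).

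Genes with a mean of at least 5 were tested 2-sided on log2(normalized count + 1) by limma 3.58.1 (R 4.3.3, variance trend on), with Benjamini-Hochberg adjustment over 10192 genes at 0.05. This scale understates changes of low genes. Coordinates are those of the deposited table (BDGP6), and for all 10 genes they equal those of the Ensembl BDGP6 annotation, which gave exon lengths. Alternatives were TMM, total-read and recomputed size-factor scaling, pseudocounts of 0.5 and 5, other filters, the count tests of DESeq2 1.42.0 and edgeR 4.0.16 on recovered counts, array weights, a replicate block and leaving out libraries. The fit was also run on simulated counts, drawn independently for each gene and library. Such counts lack shifts shared by many genes, like those of the marker lists, so the run does not test the fit under them. The 10 genes, the lists and the alternatives were chosen with earlier results of these data known. Besides the 10 genes, the called genes of each pathway list were named, or the 2 with the smallest p, and the 2 genes nearest to each profile; the other pathway genes given were chosen after their values were seen. Counting precision is limited by 303 to 5329 reads per gene and library.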

Additional observations from a re-analysis of the deposited data

How the results depend on the processing

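Of 210 recalculations (21 alternatives for each of the 10 genes), 1 passed the threshold (rho by DESeq2, which gave 1 of the 10 genes lower), 8 changed sign and the others kept both direction and call. The sign changes were those of kek1 (-0.0113 with total-read scaling, -0.22 without S2 and S5, and -0.0460 to 0.28 leaving out 1 library), ru (0.18 without S2 and S5, and -0.33 to 0.0816 leaving out 1 library) and sty (-0.0133 without S2 and S5); the cause was not tested. Over all genes, 243 were higher and 186 lower. DESeq2 gave 503 and 344, total-read scaling, which shifted the median gene by -0.14, gave 177 and 268, leaving out W6 and S4 gave 156 and 106, leaving out S2 and S5 gave 145 and 138, and leaving out 1 library gave 137 to 251 and 111 to 189. The pathway genes called lower numbered 2 with TMM or total-read scaling, a pseudocount of 5, DESeq2, array weights or without S2 and S5, 0 without W6 and S4, and 0 to 2 without 1 library, and DESeq2 called 1 higher. Levels per kb of the longest transcript instead of merged exon were 2871 for spi and 615 for sty in control libraries.

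The numbers in the column names do not pair the libraries: the deviations of same-numbered libraries correlated at 0.0869, 0.190 and 0.0625, and a number is not said to mark a shared day. A replicate block by column number, which uses only numbers 1, 2 and 5 and leaves W6 and S4 without weight, gave 195 higher and 130 lower genes, 0 of the 10 genes called, and -0.61 for rho (limma adjusted p = 0.189). With the block csw was no longer called (-0.64, limma adjusted p = 0.120) and rho-6 was (-4.08, limma adjusted p = 0.0321). Depth limits these genes little, at 303 reads or more, and the spread between libraries sets the width of the intervals.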
